A study of Mus musculus with 8 samples.

Results

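The 43 genes described here encode the contractile and structural proteins of striated muscle: filament proteins of the sarcomere, Z-disc and M-band proteins, the intermediate filament protein desmin, chaperones of the myofibril, and proteins of calcium release and energy supply. They were listed by symbol and found by mouse gene ID in the table of estimated counts, and all 43 were present among its 24573 genes. RNA sequencing was done on C2C12 cells, a mouse myoblast line that divides in serum and fuses into multinucleate myotubes once serum is removed. They were growing, in medium with 10% calf serum. shRNA lentivirus had been used to transduce them, with polybrene at 8 µg/ml. Puromycin was used at 2 µg/ml to select them and at 1 µg/ml to maintain them. The 4 groups, of 2 libraries each, were knockdown of Brd9, knockdown of Baf250A (the protein of the gene Arid1a), knockdown of Baf180 (the protein of the gene Pbrm1) and a scramble shRNA as control. The titles carry 1 hairpin code for each target, so a knockdown group stands for 1 hairpin. The labels do not state that a group's 2 libraries stem from separate cultures. The p-values therefore cover the spread between the libraries at hand, and that spread may be technical.

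A sarcomere is built from thick filaments of myosin and thin filaments of actin, tropomyosin and troponin. The thin filaments are anchored in Z-discs, the thick filaments are joined at the M-band, and titin spans from one to the other. Most of these proteins are made in quantity only after myoblasts leave the cell cycle and differentiate under the myogenic regulators MyoD and myogenin, while desmin and several actin-binding proteins are already made in dividing myoblasts. SWI/SNF complexes are ATP-dependent chromatin remodellers that take part in that switch. Brd9 belongs to the non-canonical form (ncBAF), Baf250A to the canonical form (cBAF) and Baf180 to the polybromo form (PBAF).

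Library totals ranged from 17763076 to 20400863 estimated counts. The targeted transcripts were low in their own knockdown. Brd9 had 157 and 135 counts in Brd9 knockdown libraries, against 717 and 637 in scramble libraries. Arid1a had 1335 and 1243 counts in Baf250A knockdown libraries, against 2834 and 2720 in scramble libraries. Pbrm1 had 65 and 86 counts in Baf180 knockdown libraries, against 876 and 969 in scramble libraries. All 8 markers listed for myoblasts were detected, and their summed level was 1689 and 2130 CPM (counts scaled to the library size, itself adjusted by TMM) in Brd9 knockdown, 1106 and 889 in Baf250A knockdown, 3660 and 2614 in Baf180 knockdown and 2013 and 1990 in scramble libraries. That list holds Des, itself among the 43, and without it the other 7 summed to 1009 and 1153 CPM in Brd9 knockdown, 367 and 326 in Baf250A knockdown, 1595 and 1307 in Baf180 knockdown and 1038 and 1039 in scramble libraries. The 6 smooth muscle markers summed to 5457 and 6712 CPM in Brd9 knockdown, 10379 and 8887 in Baf250A knockdown, 11361 and 9165 in Baf180 knockdown and 3593 and 3614 in scramble libraries. The 8 cardiac markers summed to between 22.6 and 44.8 CPM in any library, and the 4 endothelial and 4 leukocyte markers to at most 2.61 CPM. The 6 fibroblast markers, with Tcf21 at 0, summed to between 569 and 874 CPM in knockdown libraries, against 379 and 374 in scramble libraries. The 6 neural markers, with Snap25 at 0, summed to between 62.1 and 345 CPM in knockdown libraries, against 714 and 654 in scramble libraries. The 6 adipocyte markers, with Plin1 and Cidec at 0, summed to 43.3 and 32.8 CPM in Brd9 knockdown, 30.7 and 33.6 in Baf250A knockdown, 13.4 and 20.0 in Baf180 knockdown and 13.6 and 10.5 in scramble libraries, and Lpl alone took 30.01 and 20.9 CPM of the Brd9 knockdown sums and 1.40 and 1.33 CPM of the scramble sums. Their part in the results on muscle genes was not tested.

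The list as a whole was low in these dividing cells and dominated by a few genes. Desmin (Des), beta-tropomyosin (Tpm2), filamin C (Flnc) and alpha-B crystallin (Cryab) took between 90.2% and 94.3% of the counts of all 43 genes in every library. Per kilobase of gene length, the mean level over the 8 libraries was 337 CPM per kilobase for Des, 242 for Tpm2, 220 for Cryab and 61.4 for Flnc. The next in order were Tnnt2 at 33.2, Acta1 at 28.7, Actn3 at 15.2, Pdlim3 at 7.58, Ldb3 at 5.92 and Tnnc1 at 5.34 CPM per kilobase. Only 7 genes reached 1000 counts in some library, 14 stayed under 10 counts in every library, and Mybpc1, a myosin-binding protein C, had 0 counts in all 8. A total of 24 genes passed the filter on low counts and were tested, and 19 did not. Of the 24, 13 reached the filter's level of 0.541 CPM in all 8 libraries and 11 did so in fewer. Myh3, Casq2 and Mylpf reached it in both libraries of the Brd9 knockdown group alone. Tnnt1 and Atp2a1 did so in the Brd9 and Baf180 knockdown groups alone, and Ttn and Smyd1 in the Brd9 knockdown and scramble groups alone. Myom2 and Synpo2l did so in every group but Baf250A knockdown, and Ryr1 in every group but scramble. Myom1 did so in no group.

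**Figure D1:**
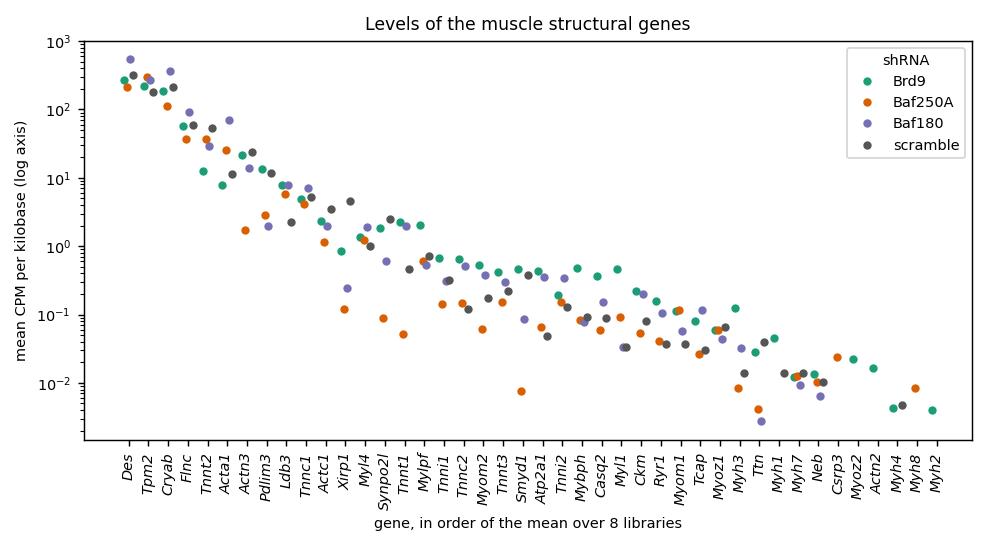
Mean level of each muscle structural gene per shRNA group, in CPM per kilobase of gene length on a log axis, with genes ordered from left to right by their mean over the 8 libraries. Each point is the mean of 2 libraries, a group at 0 has no point, and Mybpc1, at 0 in all libraries, is left out. Des, Tpm2 and Cryab lie highest, at means of 337, 242 and 220 CPM per kilobase.

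Among the 24 tested genes, the calls against scramble in Brd9 knockdown were mostly rises of genes of low level. Those in Baf250A knockdown were mostly falls, and those in Baf180 knockdown went in both directions. In RNA from whole cultures, fewer cells that make a transcript and less of it in each cell cannot be told apart. In Brd9 knockdown 8 of the 24 tested genes rose and 2 fell, where 6.45% of all 12420 tested genes rose and 3.57% fell (edgeR quasi-likelihood test, adjusted p below 0.05). In Baf250A knockdown 3 rose and 12 fell, where 15.5% of all tested genes rose and 14.0% fell. In Baf180 knockdown 10 rose and 8 fell, where 17.2% of all tested genes rose and 17.0% fell. The median log2 fold change of the 24 was 0.26 in Brd9 knockdown, -0.62 in Baf250A knockdown and 0.62 in Baf180 knockdown, beside medians over all tested genes of 0.04, -0.02 and -0.02. The libraries did not overlap with scramble for 17 of the 24 in Brd9 knockdown, 22 in Baf250A knockdown and 22 in Baf180 knockdown, where 65.0%, 75.8% and 72.1% of all tested genes did not overlap. Because a gene could pass the filter through the group in which it was high, these counts describe the 24 and not the whole list. Of the rises in Brd9 knockdown, those of Myh3, Mylpf, Casq2, Tnnt1, Atp2a1 and Ryr1 were favoured in this way. Those of Myom2 and Ldb3 were not. Falls of Ttn, Smyd1, Myom2 and Synpo2l in Baf250A knockdown were favoured too. The shares of called genes set beside all tested genes are therefore no measure of the list.

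**Figure D2:**
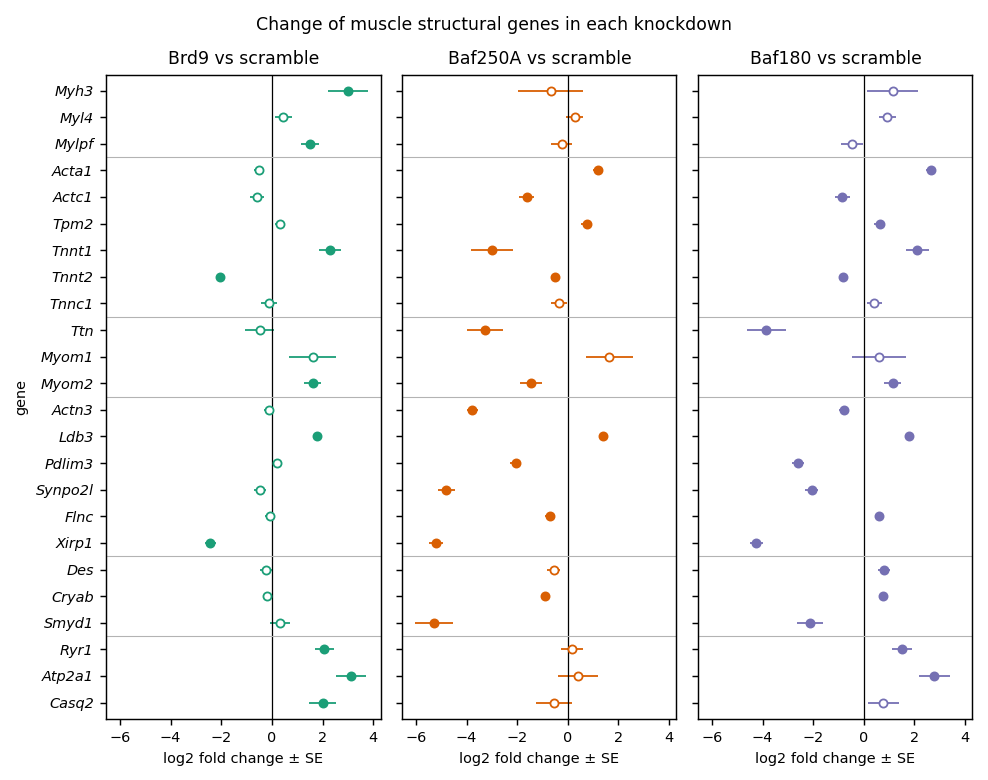
Log2 fold change of each tested muscle structural gene against scramble in Brd9, Baf250A and Baf180 knockdown, with bars of 1 standard error (2 libraries per group). Filled points passed an adjusted p of 0.05 in edgeR, open points did not, and lines separate thick filament, thin filament, titin and M-band, Z-disc and actin-binding, intermediate filament and chaperone, and calcium genes. The Baf250A panel holds 12 filled points left of 0 and 3 right of it.

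The 3 comparisons share the scramble libraries, and the calls of each are given side by side. Ldb3 rose in all 3 knockdowns, and Tnnt2 and Xirp1 fell in all 3. Tnnt1 and Myom2 rose in Brd9 and Baf180 knockdown and fell in Baf250A knockdown. Actc1, Actn3, Pdlim3, Smyd1, Synpo2l and Ttn fell in Baf250A and Baf180 knockdown and were not called in Brd9 knockdown. Acta1 and Tpm2 rose in Baf250A and Baf180 knockdown, Cryab and Flnc fell in Baf250A knockdown and rose in Baf180 knockdown, and Ryr1 and Atp2a1 rose in Brd9 and Baf180 knockdown. Myh3, Mylpf and Casq2 were called, as higher, in Brd9 knockdown, and Des, as higher, in Baf180 knockdown. Myl4, Myom1 and Tnnc1 were called in none.

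**Figure D3:**
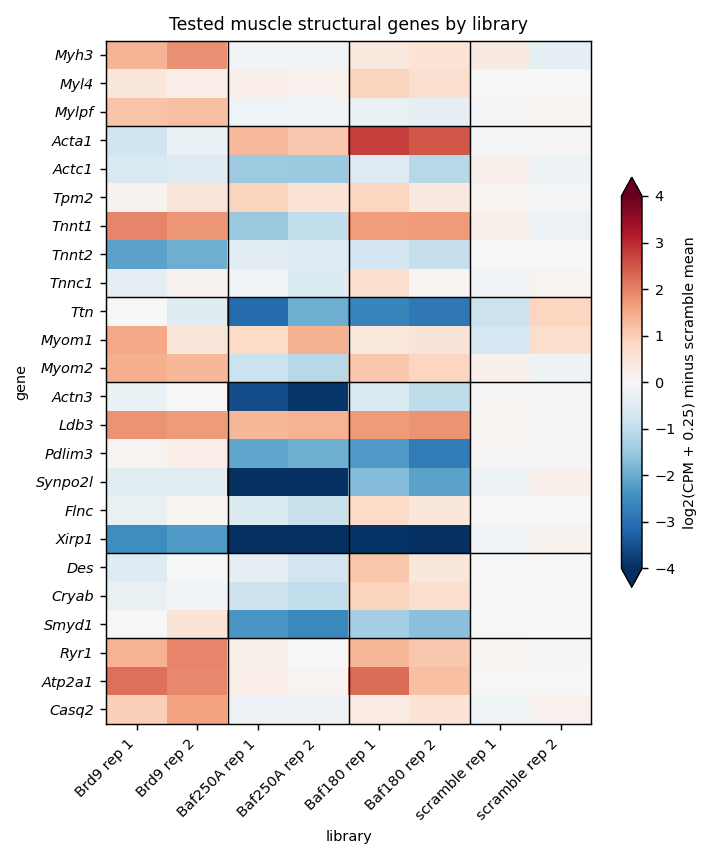
Level of the 24 tested genes in each of the 8 libraries, as log2(CPM + 0.25) minus the mean of the 2 scramble libraries, with Brd9, Baf250A, Baf180 and scramble libraries from left to right. Colours saturate at 4 log2 units in either direction. Xirp1 is at the lower end of the scale in the Baf250A and Baf180 libraries, and the 2 Ttn values of the scramble group differ from each other.

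Thick filament genes were close to silent. Of 11 listed, 3 were tested, and Myh3 and Mylpf were called, both higher in Brd9 knockdown. Both passed the filter on low counts through that group alone, so that a difference in it was favoured by the filter. Myh3, the embryonic myosin heavy chain, had 12 and 17 counts in Brd9 knockdown, 1 and 1 in Baf250A knockdown, 3 and 4 in Baf180 knockdown and 3 and 0 in scramble libraries. Mylpf, the regulatory light chain of fast skeletal myosin, had 31 and 30 counts in Brd9 knockdown, 9 and 9 in Baf250A knockdown, 7 and 7 in Baf180 knockdown and 9 and 10 in scramble libraries. Both Brd9 knockdown libraries lay above all other 6 libraries for either gene. The log2 fold change against scramble was 3.01 ± 0.79 for Myh3 (SE, n = 2 per group, adjusted p = 0.045 in edgeR) and 1.49 ± 0.36 for Mylpf (adjusted p = 0.0319). From the counts alone, Myh3 was 8.54 times as abundant in Brd9 knockdown as in scramble libraries, with an exact 95% interval for counting error of 2.65 to 43.8. In Baf250A and Baf180 knockdown neither gene was called, with log2 fold changes for Myh3 of -0.68 and 1.14 and for Mylpf of -0.24 and -0.45. Myl4, the essential light chain of embryonic and atrial muscle, had 1.31 and 1.10 CPM in Brd9 knockdown, 1.11 and 1.03 in Baf250A knockdown, 1.85 and 1.53 in Baf180 knockdown and 0.899 and 0.867 in scramble libraries, and was not called (adjusted p = 0.388, 0.551 and 0.0529 in that order).

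The thick filament calls rested on few counts. Neither Myh3 nor Mylpf was called when scramble replicate 1 (adjusted p = 0.0518 and 0.192) or scramble replicate 2 (0.225 and 0.170) was left out, with log2 fold changes for Myh3 of 6.80, against a library at 0 counts, and 2.07, nor when Brd9 replicate 1 (0.140 and 0.183) or Brd9 replicate 2 (0.122 and 0.0915) was. Leaving out Baf250A replicate 1 (0.0568 and 0.0518) or replicate 2 (0.0567 and 0.0533) also ended both calls, and leaving out Baf180 replicate 1 (0.0610) or replicate 2 (0.0615) ended that of Myh3. DESeq2 did not call Mylpf (adjusted p = 0.168) and gave no adjusted p for Myh3.

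The remaining myosin genes stayed under the filter. Summed over all 6 myosin heavy chain genes of the list, Brd9 knockdown libraries had 20 and 25 counts, Baf250A knockdown 5 and 2, Baf180 knockdown 4 and 5 and scramble 6 and 4. The adult fast heavy chain gene Myh1 had 5 and 6 counts in Brd9 knockdown, 0 in all Baf250A and Baf180 knockdown libraries, and 1 and 2 in scramble libraries. Myl1, the essential light chain of fast muscle, had 6 and 9 counts in Brd9 knockdown, 2 and 1 in Baf250A knockdown, 0 and 1 in Baf180 knockdown and 1 and 0 in scramble libraries. Its ratio of Brd9 knockdown to scramble counts was 13.3, with an exact 95% interval of 2.04 to 558. Mybph, myosin-binding protein H, had 9 and 26 counts in Brd9 knockdown, 1 and 5 in Baf250A knockdown, 4 and 1 in Baf180 knockdown and 5 and 1 in scramble libraries. With no filter on low counts, Mybph was the 1 gene of these 19 called against scramble. It was higher in Brd9 knockdown (log2 fold change 2.34 ± 0.81, adjusted p = 0.0323). P-values without the filter cannot be set beside those of the fit reported. For Actn3 in Baf250A knockdown, edgeR's unadjusted p was 1.78e-67 without the filter and 2.70e-08 with it, at a standard error of 0.22 in both. Myh2, Myh4 and Myh8, heavy chains of adult and perinatal fast muscle, had between 1 and 2 counts over all 8 libraries, and Myh7, the slow heavy chain, at most 3 in any.

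Thin filament genes moved apart from each other. Acta1, the skeletal alpha-actin, had 9.40 and 13.8 CPM in Brd9 knockdown, 41.1 and 35.2 in Baf250A knockdown, 114 and 93.7 in Baf180 knockdown and 15.9 and 17.2 in scramble libraries. The Baf250A and Baf180 knockdown libraries lay above scramble and did not overlap with each other. Acta1 rose 2.30-fold in Baf250A knockdown (log2 fold change 1.20 ± 0.20, adjusted p = 0.00334) and 6.25-fold in Baf180 knockdown (2.64 ± 0.21, adjusted p = 8.03e-05), and was not called in Brd9 knockdown (-0.52 ± 0.21, adjusted p = 0.130). Actc1, the cardiac alpha-actin that embryonic skeletal muscle also makes, moved the other way. It had 3.30 and 3.51 CPM in Brd9 knockdown, 1.71 and 1.65 in Baf250A knockdown, 3.54 and 2.24 in Baf180 knockdown and 5.95 and 4.39 in scramble libraries. All 6 knockdown libraries lay below both scramble libraries. Actc1 fell in Baf250A knockdown (log2 fold change -1.62 ± 0.30, adjusted p = 0.00526) and in Baf180 knockdown (-0.84 ± 0.29, adjusted p = 0.0471), and was not called in Brd9 knockdown (-0.60 ± 0.28, adjusted p = 0.179). The Actc1 call in Baf180 knockdown was lost without scramble replicate 1 (adjusted p = 0.263), scramble replicate 2 (0.0749), either library of the Brd9 group (0.0666 and 0.0668) or Baf250A group (0.0570 and 0.0568), or Baf180 replicate 2 (0.184). It was also lost with DESeq2 (adjusted p = 0.0897) and in a fit of only the 4 libraries compared (0.0519).

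The level of Acta1 is uncertain because its sequence is similar to that of Acta2, the smooth muscle alpha-actin, which was far more abundant. Acta1 counts were 0.198% and 0.237% of Acta2 counts in Brd9 knockdown, 0.468% and 0.476% in Baf250A knockdown, 1.09% and 1.13% in Baf180 knockdown and 0.516% and 0.552% in scramble libraries. Acta2 itself rose in all 3 knockdowns, with log2 fold changes of 0.77, 1.38 and 1.59 in Brd9, Baf250A and Baf180 knockdown. How far reads of Acta2 were assigned to Acta1 was not tested.

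Tpm2, beta-tropomyosin, which lies along the actin filament, had 501 and 633 CPM in Brd9 knockdown, 844 and 668 in Baf250A knockdown, 817 and 578 in Baf180 knockdown and 474 and 433 in scramble libraries. All 6 knockdown libraries lay above scramble, and Tpm2 rose 1.67-fold in Baf250A knockdown (adjusted p = 0.0239) and 1.54-fold in Baf180 knockdown (adjusted p = 0.0393). Tpm2 is also made in smooth muscle and fibroblasts, and the summed smooth muscle markers given above were higher in the same libraries. Its part in the result was not tested. With offsets for GC content and gene length, Tpm2 was called in Brd9 knockdown (log2 fold change 0.48, adjusted p = 0.00825) and no longer in Baf180 knockdown (0.25, adjusted p = 0.0813). The call in Baf250A knockdown was lost without scramble replicate 1 (adjusted p = 0.0959), scramble replicate 2 (0.140) or Baf250A replicate 1 (0.0643), and that in Baf180 knockdown without scramble replicate 1 (0.120), scramble replicate 2 (0.192) or Baf180 replicate 1 (0.262, where the log2 fold change was 0.35).

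The troponin T genes differed by isoform. Tnnt2, the cardiac troponin T that developing skeletal muscle also makes, had 14.2 and 15.9 CPM in Brd9 knockdown, 45.5 and 43.9 in Baf250A knockdown, 37.3 and 33.2 in Baf180 knockdown and 63.6 and 62.4 in scramble libraries. The 4 groups did not overlap, with Brd9 knockdown lowest. Tnnt2 fell in Brd9 knockdown (log2 fold change -2.06 ± 0.14, adjusted p = 9.79e-05), in Baf250A knockdown (-0.49 ± 0.14, adjusted p = 0.0251) and in Baf180 knockdown (-0.84 ± 0.14, adjusted p = 0.00289). The call in Baf250A knockdown was lost with the GC and length offsets, where the log2 fold change was -0.14 (adjusted p = 0.290), and on leaving out scramble replicate 1 (0.148), scramble replicate 2 (0.127), Baf250A replicate 1 (0.0963) or Baf250A replicate 2 (0.196).

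Tnnt1, the slow skeletal troponin T, had 50 and 40 counts in Brd9 knockdown, 0 and 2 in Baf250A knockdown, 34 and 37 in Baf180 knockdown and 10 and 6 in scramble libraries. It rose 4.91-fold in Brd9 knockdown (log2 fold change 2.30 ± 0.45, adjusted p = 0.0142) and 4.33-fold in Baf180 knockdown (2.12 ± 0.46, adjusted p = 0.00889) and fell in Baf250A knockdown (adjusted p = 0.0243). Tnnt1 passed the filter through the Brd9 and Baf180 knockdown groups alone, so that both rises were favoured by the filter. The ratio of Baf250A knockdown to scramble counts was 0.112, with an exact 95% interval of 0.0125 to 0.476. Between knockdowns, Tnnt1 was lower in Baf250A than in Brd9 knockdown (log2 fold change -5.30 ± 0.63, adjusted p = 0.000548) and than in Baf180 knockdown (-5.12 ± 0.65, adjusted p = 0.000273). The rise in Brd9 knockdown lost its call without scramble replicate 1 (adjusted p = 0.0587), scramble replicate 2 (0.136) or Brd9 replicate 1 (0.0980). The fall in Baf250A knockdown lost it without scramble replicate 1 (0.134), scramble replicate 2 (0.0517) or Baf250A replicate 1 (0.0944), where the log2 fold change was -2.01. Without Baf250A replicate 2 the fitted value was -6.08, from a library at 0 counts, and the call held. The rise in Baf180 knockdown lost its call without scramble replicate 2 (0.0682).

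Tnnc1, the troponin C of slow and cardiac muscle, had 2.76 and 4.14 CPM in Brd9 knockdown, 3.32 and 2.48 in Baf250A knockdown, 5.91 and 3.98 in Baf180 knockdown and 3.43 and 3.99 in scramble libraries, and was not called. The fast troponin C gene Tnnc2 had 10 and 8 counts in Brd9 knockdown, 1 and 3 in Baf250A knockdown, 7 and 6 in Baf180 knockdown and 2 and 1 in scramble libraries, and was not tested. Its count ratio to scramble was 5.30 in Brd9 knockdown (exact 95% interval 1.55 to 28.1) and 4.28 in Baf180 knockdown (1.18 to 23.4). Exons of Tnnc2 overlap the cell cycle gene Ube2c on the opposite strand by 144 bases, and the sources used here do not give the use of strand in counting. The fast troponin T gene Tnnt3 and the slow troponin I gene Tnni1 had 7 and 10, and 6 and 22, counts in Brd9 knockdown and at most 7 in any other library. Tnni2, the fast troponin I, had at most 7 counts in any library, and so did Neb, the giant thin filament protein nebulin.

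The 250 bases before the annotated start are shown for 3 thin filament genes whose levels changed in different directions, Acta1 and Actc1 in opposite ones and Tnnt2 downward in all 3 knockdowns (RefSeq, GRCm38.p6). They run 5′ to 3′ on the gene's strand, and capitals mark matches on either strand to the E-box CAGCTG, the MCAT sequence CATTCC, the MEF2 site or the CArG box, which are known as binding sequences of MyoD, TEAD, MEF2 and SRF proteins. Acta1 lies on the minus strand (chr8:123894776-123895025), Actc1 on the minus strand (chr2:114052876-114053125) and Tnnt2 on the plus strand (chr1:135836084-135836333).
Acta1: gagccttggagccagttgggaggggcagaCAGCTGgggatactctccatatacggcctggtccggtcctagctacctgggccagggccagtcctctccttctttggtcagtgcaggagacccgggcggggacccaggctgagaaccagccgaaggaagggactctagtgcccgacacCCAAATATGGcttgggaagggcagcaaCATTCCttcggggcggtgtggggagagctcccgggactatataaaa
Actc1: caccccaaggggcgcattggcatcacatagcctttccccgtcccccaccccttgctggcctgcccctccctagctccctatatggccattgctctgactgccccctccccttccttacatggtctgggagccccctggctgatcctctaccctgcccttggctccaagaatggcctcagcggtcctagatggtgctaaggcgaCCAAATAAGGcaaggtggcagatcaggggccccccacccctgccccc
Tnnt2: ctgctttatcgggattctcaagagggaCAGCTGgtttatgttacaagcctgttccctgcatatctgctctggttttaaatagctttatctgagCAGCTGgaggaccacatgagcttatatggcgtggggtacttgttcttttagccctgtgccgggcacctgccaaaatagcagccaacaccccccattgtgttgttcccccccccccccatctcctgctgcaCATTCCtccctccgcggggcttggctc
Acta1 held CAGCTG 221 bases before the start, a CArG box at 73 and CATTCC at 46. Actc1 held a CArG box at 47 bases before the start. Tnnt2 held CAGCTG at 223 and 157 bases and CATTCC at 27. This is the first of 2 starts of Tnnt2, and the 250 bases before the other held no marked match. A match is a description of letters and not of a site in use.

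Titin and the M-band genes were at very low levels per length. Ttn, titin, which links Z-disc to M-band, had 65 and 41 counts in Brd9 knockdown, 3 and 12 in Baf250A knockdown, 5 and 4 in Baf180 knockdown and 29 and 101 in scramble libraries. The Baf250A and Baf180 knockdown libraries lay below both scramble libraries, which themselves differed, at 1.63 and 5.84 CPM. Ttn passed the filter through the Brd9 knockdown and scramble groups alone, so that falls in Baf250A and Baf180 knockdown were favoured. Ttn fell in Baf250A knockdown (log2 fold change -3.26 ± 0.71, adjusted p = 0.0105) and in Baf180 knockdown (-3.84 ± 0.78, adjusted p = 0.00692), and was not called in Brd9 knockdown (-0.49 ± 0.56, adjusted p = 0.582). Without scramble replicate 2 the log2 fold change in Baf250A knockdown was -2.07 and the call was lost (adjusted p = 0.0699). The other calls of Ttn against scramble held, but the size moved with single libraries, to -3.91 without scramble replicate 1, -2.51 without Baf250A replicate 1 and -4.51 without Baf250A replicate 2 in Baf250A knockdown, and to -4.49 without scramble replicate 1 and -2.66 without scramble replicate 2 in Baf180 knockdown. With offsets for GC content and gene length, Ttn was at -3.04 in Baf180 knockdown (adjusted p = 0.00275) and at -1.12 in Brd9 knockdown (adjusted p = 0.0532).

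Myom2, the myomesin that bridges thick filaments in fast fibres, had 57 and 47 counts in Brd9 knockdown, 7 and 5 in Baf250A knockdown, 35 and 32 in Baf180 knockdown and 18 and 12 in scramble libraries. It rose 3.05-fold in Brd9 knockdown (adjusted p = 0.0177) and 2.20-fold in Baf180 knockdown (adjusted p = 0.0306), and it was 2.75-fold lower in Baf250A knockdown (adjusted p = 0.0324). The order of the groups matched that of Tnnt1, with Brd9 knockdown highest and Baf250A knockdown lowest. Myom2 reached the filter's level in every group but Baf250A knockdown, so that a fall there was favoured by the filter. Between knockdowns, Myom2 was 8.39-fold lower in Baf250A than in Brd9 knockdown (adjusted p = 0.000657) and 6.06-fold lower than in Baf180 knockdown (adjusted p = 0.000579). Against scramble the Brd9 call was lost without scramble replicate 1 (adjusted p = 0.0637), scramble replicate 2 (0.160) or Brd9 replicate 1 (0.132). The Baf250A call was lost without either library of the scramble (0.195 and 0.0647), Brd9 (0.0579 and 0.0573) or Baf250A group (0.0729 and 0.222), and the Baf180 call without either library of the scramble (0.0683 and 0.185) or Baf180 group (0.145 and 0.0508). DESeq2 called neither (adjusted p = 0.0956 in Baf250A and 0.113 in Baf180 knockdown), and the fit of only the 4 libraries did not call Myom2 in Baf250A knockdown (0.0558). Myom1, the other myomesin of the list, had 19 and 6 counts in Brd9 knockdown, 9 and 16 in Baf250A knockdown, 5 and 6 in Baf180 knockdown and 0 and 7 in scramble libraries, and was not called.

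Genes of the Z-disc and of actin-binding proteins mostly fell in Baf250A and Baf180 knockdown. Of the 6 tested, 5 fell in Baf250A knockdown, 4 fell in Baf180 knockdown and 1 fell in Brd9 knockdown, where 14.0%, 17.0% and 3.57% of all tested genes fell. Xirp1, which encodes the actin-binding repeat protein Xin of cell junctions and of myofibril repair, had 4.51 and 5.39 CPM in Brd9 knockdown, 0.855 and 0.568 in Baf250A knockdown, 1.51 and 1.31 in Baf180 knockdown and 24.04 and 29.5 in scramble libraries. All 4 groups were apart. Xirp1 was 5.41-fold lower in Brd9 knockdown (log2 fold change -2.43 ± 0.22, adjusted p = 0.000351), 37.2-fold lower in Baf250A knockdown (-5.22 ± 0.28, adjusted p = 1.22e-05) and 19.0-fold lower in Baf180 knockdown (-4.24 ± 0.26, adjusted p = 2.32e-05). Baf250A and Baf180 knockdown differed by -0.97 ± 0.32 (adjusted p = 0.0259), a call lost with the GC and length offsets (-0.39, adjusted p = 0.321).

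Synpo2l, a Z-disc protein of the synaptopodin family, had 6.84 and 6.81 CPM in Brd9 knockdown, 0.302 and 0.361 in Baf250A knockdown, 2.67 and 1.91 in Baf180 knockdown and 8.09 and 10.9 in scramble libraries. It was 28.0-fold lower in Baf250A knockdown (log2 fold change -4.81 ± 0.33, adjusted p = 3.53e-05) and 4.14-fold lower in Baf180 knockdown (-2.05 ± 0.26, adjusted p = 0.000875), and was not called in Brd9 knockdown (-0.47 ± 0.24, adjusted p = 0.210). Baf250A knockdown libraries had 6 and 7 counts of it, against 46 and 35 in Baf180 knockdown. The difference between those groups was 6.78-fold (adjusted p = 0.000325), or 4.22-fold with the GC and length offsets. Synpo2l reached the filter's level in every group but Baf250A knockdown, so that a fall there was favoured by the filter.

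Actn3, the alpha-actinin of fast fibres that crosslinks actin at the Z-disc, had 56.2 and 68.7 CPM in Brd9 knockdown, 5.63 and 4.34 in Baf250A knockdown, 45.9 and 33.6 in Baf180 knockdown and 70.9 and 65.7 in scramble libraries. The Brd9 knockdown and scramble libraries overlapped, and Baf250A knockdown lay far below all others. Actn3 was 13.7-fold lower in Baf250A knockdown (log2 fold change -3.77 ± 0.22, adjusted p = 1.40e-05) and 1.72-fold lower in Baf180 knockdown (-0.78 ± 0.19, adjusted p = 0.0145). The Baf180 call was lost without scramble replicate 1 (adjusted p = 0.0890), scramble replicate 2 (0.0625) or Baf180 replicate 2 (0.0574). Actn2, the other muscle alpha-actinin, had 1 count in each Brd9 knockdown library and 0 in the other 6.

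Of 2 PDZ and LIM domain proteins that bind alpha-actinin, Pdlim3 fell in Baf250A and Baf180 knockdown and Ldb3 rose in all 3. Pdlim3 had 20.5 and 22.4 CPM in Brd9 knockdown, 4.27 and 4.70 in Baf250A knockdown, 3.71 and 2.51 in Baf180 knockdown and 19.5 and 18.1 in scramble libraries. It was 4.18-fold lower in Baf250A knockdown (adjusted p = 0.000259) and 6.04-fold lower in Baf180 knockdown (adjusted p = 0.000127), and was not called in Brd9 knockdown (log2 fold change 0.19 ± 0.20, adjusted p = 0.541). Ldb3, also known as Cypher or ZASP, had 27.8 and 26.0 CPM in Brd9 knockdown, 20.0 and 20.8 in Baf250A knockdown, 25.8 and 27.8 in Baf180 knockdown and 8.31 and 7.28 in scramble libraries. All 6 knockdown libraries lay above both scramble libraries. Ldb3 rose 3.44-fold in Brd9 knockdown (log2 fold change 1.78 ± 0.16, adjusted p = 0.000308), 2.61-fold in Baf250A knockdown (1.38 ± 0.16, adjusted p = 0.000501) and 3.44-fold in Baf180 knockdown (1.78 ± 0.16, adjusted p = 0.000149).

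**Figure D4:**
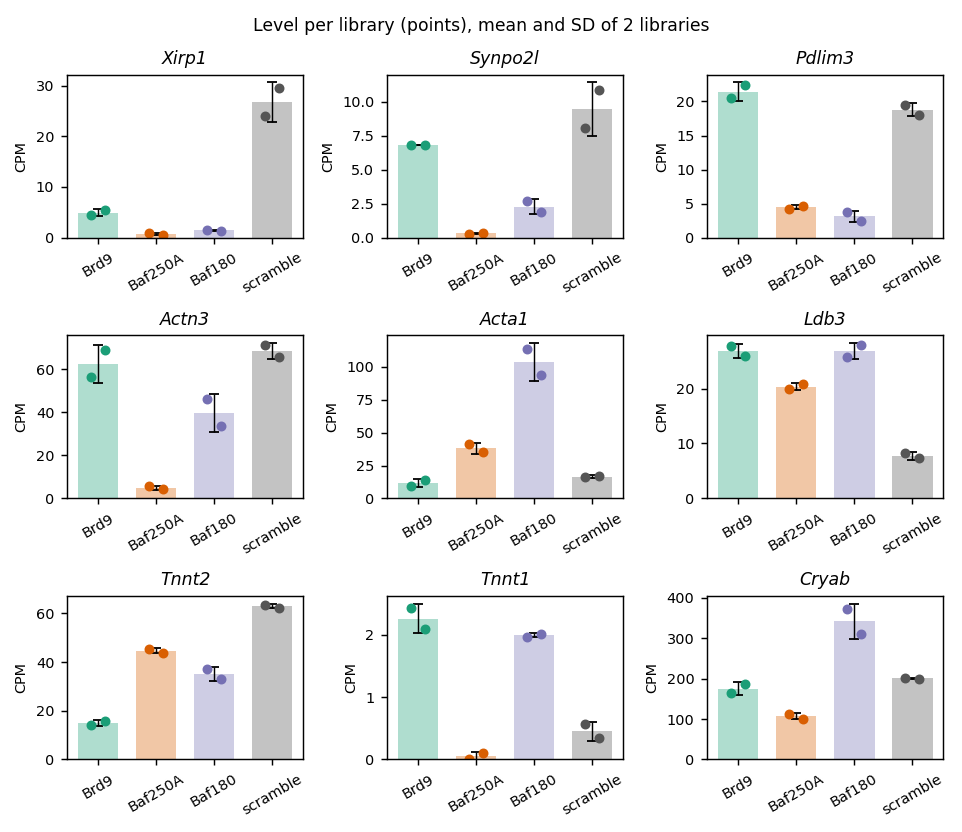
CPM of 9 muscle structural genes in each library (points), with the mean (bar) and SD (line) of the 2 libraries of Brd9, Baf250A and Baf180 knockdown and of scramble, from left to right in each panel, each with its own axis from 0. Xirp1 is at 24.04 and 29.5 CPM in scramble and at most 5.39 CPM in any knockdown library, and Ldb3 is at least 20.0 CPM in every knockdown library against 8.31 and 7.28 CPM in scramble.

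Flnc, the muscle filamin that crosslinks actin at the Z-disc and the membrane, had 449 and 584 CPM in Brd9 knockdown, 378 and 294 in Baf250A knockdown, 932 and 760 in Baf180 knockdown and 548 and 553 in scramble libraries. It was 1.64-fold lower in Baf250A knockdown (adjusted p = 0.0187) and 1.54-fold higher in Baf180 knockdown (adjusted p = 0.0278), and it was 2.52-fold lower in Baf250A than in Baf180 knockdown (log2 fold change -1.33 ± 0.18, adjusted p = 0.000376). With the GC and length offsets the rise in Baf180 knockdown was 0.28 on the log2 scale and no longer called (adjusted p = 0.0863). The Baf250A call was lost without scramble replicate 1 (0.0917), scramble replicate 2 (0.0893) or Baf250A replicate 2 (0.177), and the Baf180 call without scramble replicate 1 (0.130), scramble replicate 2 (0.127) or Baf180 replicate 1 (0.158). The untested Z-disc genes Tcap, Myoz1, Myoz2 and Csrp3 had at most 3 counts in any library.

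The 250 bases before the start are shown for 3 Z-disc genes, Ldb3, which rose in all 3 knockdowns, and Pdlim3 and Synpo2l, which fell in Baf250A and Baf180 knockdown, with capitals as above. Ldb3 lies on the minus strand (chr14:34588682-34588931, the first of 2 starts in the table), Pdlim3 on the plus strand (chr8:45885237-45885486) and Synpo2l on the minus strand (chr14:20668355-20668604, the first of 2 starts).
Ldb3: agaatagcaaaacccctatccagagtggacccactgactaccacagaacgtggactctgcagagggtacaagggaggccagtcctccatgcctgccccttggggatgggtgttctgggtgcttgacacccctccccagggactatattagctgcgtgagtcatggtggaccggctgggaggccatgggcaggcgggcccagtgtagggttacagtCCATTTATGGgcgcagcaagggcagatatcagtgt
Pdlim3: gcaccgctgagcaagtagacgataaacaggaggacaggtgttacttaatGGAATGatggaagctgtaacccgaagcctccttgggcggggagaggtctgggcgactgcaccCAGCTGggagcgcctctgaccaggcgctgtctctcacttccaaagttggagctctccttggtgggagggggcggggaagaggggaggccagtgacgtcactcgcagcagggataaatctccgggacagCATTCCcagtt
Synpo2l: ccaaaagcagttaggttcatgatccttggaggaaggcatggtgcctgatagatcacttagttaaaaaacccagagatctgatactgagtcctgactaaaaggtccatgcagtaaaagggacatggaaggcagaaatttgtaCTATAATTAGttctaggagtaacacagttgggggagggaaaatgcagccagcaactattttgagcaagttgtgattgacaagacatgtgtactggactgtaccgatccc
Ldb3 held a CArG box 35 bases before the start. Pdlim3 held CAGCTG at 139 bases, CATTCC at 11 bases and, on the other strand, at 201 bases. Synpo2l held a MEF2 site at 109 bases. The 250 bases before its other start, not shown, held CAGCTG at 246 bases and a MEF2 site at 144. Over the 41 start windows found for 34 of the 43 genes, from 250 bases before to 50 after the start, 78.0% held the general E-box CANNTG on either strand, against 72.3% of all 32851 windows. CAGCTG, which is a subset of CANNTG, was in 39.02% of the muscle gene windows and 16.3% of all windows, and CATTCC in 29.3% and 14.7%. The MEF2 site was in 19.5% and 3.19%, and the CArG box in 14.6% and 1.63%. Windows of the same gene can overlap, so that a single site can count more than once. The CArG box of Ldb3, for example, lies 35 bases before one start and 109 before the other.

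Against scramble, the 4 most abundant genes of the list differed by at most 1.88-fold. Des, the intermediate filament protein that links neighbouring Z-discs, had 680 and 977 CPM in Brd9 knockdown, 739 and 563 in Baf250A knockdown, 2065 and 1308 in Baf180 knockdown and 975 and 951 in scramble libraries. The Baf250A knockdown libraries lay below scramble and the Baf180 knockdown libraries above it. Des was not called in Baf250A knockdown (log2 fold change -0.57 ± 0.25, adjusted p = 0.106) or in Brd9 knockdown (-0.22 ± 0.24, adjusted p = 0.572). It rose 1.75-fold in Baf180 knockdown (adjusted p = 0.0323), or 1.32-fold with the GC and length offsets (adjusted p = 0.0478 in edgeR). The rise lost its call without scramble replicate 1 (adjusted p = 0.124), scramble replicate 2 (0.140) or Baf180 replicate 1 (0.234), and without that last library it was 0.44 on the log2 scale.

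Cryab, a small heat shock protein that protects desmin and titin, had 164 and 187 CPM in Brd9 knockdown, 113 and 101 in Baf250A knockdown, 372 and 311 in Baf180 knockdown and 202 and 200 in scramble libraries. It was 1.88-fold lower in Baf250A knockdown (log2 fold change -0.91 ± 0.14, adjusted p = 0.00226) and 1.70-fold higher in Baf180 knockdown (0.76 ± 0.14, adjusted p = 0.00458), and the groups were 3.20-fold apart (-1.68 ± 0.14 for Baf250A against Baf180 knockdown, adjusted p = 5.90e-05). Exons of Cryab overlap those of Hspb2 on the opposite strand by 252 bases, and Hspb2 counts were between 4.05% and 6.84% of Cryab counts.

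Smyd1, a muscle methyltransferase and partner of myosin chaperones, had 26 and 36 counts in Brd9 knockdown, 1 and 0 in Baf250A knockdown, 6 and 4 in Baf180 knockdown and 22 and 22 in scramble libraries. It fell in Baf250A knockdown (log2 fold change -5.29 ± 0.75, adjusted p = 0.00148), with a count ratio to scramble of 0.0203 and an exact 95% interval of 0.000503 to 0.119. That log2 fold change was -4.41 without Baf250A replicate 2 and -7.52 without Baf250A replicate 1, which left a library at 0 counts, and the call held in both. In Baf180 knockdown it was 4.37-fold lower (adjusted p = 0.0129), a call lost without scramble replicate 1 (0.0549), scramble replicate 2 (0.0611), Baf180 replicate 1 (0.0555) or Baf180 replicate 2 (0.0614). In Brd9 knockdown Smyd1 was not called (log2 fold change 0.32 ± 0.39, adjusted p = 0.605). Smyd1 passed the filter through the Brd9 knockdown and scramble groups alone, so that falls in Baf250A and Baf180 knockdown were favoured.

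All 3 tested genes of calcium handling, at low levels, were called higher in Brd9 knockdown, where 6.45% of all tested genes rose. Of them, 2 were also called higher in Baf180 knockdown, where 17.2% of all tested genes rose. These rises were favoured by the filter. Atp2a1 passed it through the Brd9 and Baf180 knockdown groups alone. Ryr1 reached its level in both libraries of every group but scramble. Ryr1, the calcium release channel, had 39 and 56 counts in Brd9 knockdown, 14 and 11 in Baf250A knockdown, 31 and 27 in Baf180 knockdown and 11 and 9 in scramble libraries. Atp2a1, the calcium pump SERCA1 of fast fibres, had 35 and 26 counts in Brd9 knockdown, 5 and 4 in Baf250A knockdown, 30 and 13 in Baf180 knockdown and 3 and 3 in scramble libraries. Casq2, the calsequestrin of cardiac and slow muscle that stores calcium, had 14 and 23 counts in Brd9 knockdown, 3 and 3 in Baf250A knockdown, 6 and 8 in Baf180 knockdown and 3 and 5 in scramble libraries. The Brd9 and Baf180 knockdown libraries lay above scramble for all 3 genes. Against scramble, Ryr1 was 4.19-fold higher in Brd9 knockdown (adjusted p = 0.0105) and 2.85-fold higher in Baf180 knockdown (adjusted p = 0.0186), and Atp2a1 8.66-fold higher in Brd9 knockdown (adjusted p = 0.0120) and 6.89-fold higher in Baf180 knockdown (adjusted p = 0.00944). Casq2, which passed the filter through the Brd9 knockdown group alone, was 4.02-fold higher in it (adjusted p = 0.0462) and was not called in Baf180 knockdown (log2 fold change 0.77 ± 0.62, adjusted p = 0.353). In Baf250A knockdown none of the 3 was called, with log2 fold changes of 0.16 ± 0.44 for Ryr1, 0.41 ± 0.78 for Atp2a1 and -0.56 ± 0.72 for Casq2. Ckm, the muscle creatine kinase, had at most 10 counts in any library and was not tested. Exons of Atp2a1 overlap those of Rabep2 on the opposite strand by 44 bases, and antisense transcripts are annotated over Ryr1, Des, Ttn, Ckm, Myh1, Myh2 and Myh7, so that their counts are uncertain where strand was not used.

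In Brd9 knockdown the Ryr1 call was lost without scramble replicate 1 (adjusted p = 0.0708), scramble replicate 2 (0.114) or Brd9 replicate 2 (0.0530), and the Atp2a1 call without scramble replicate 1 (0.0917), scramble replicate 2 (0.108) or Brd9 replicate 1 (0.0775). In Baf180 knockdown both calls were lost without scramble replicate 1 (0.0771 and 0.0594), scramble replicate 2 (0.109 and 0.0606) or Baf180 replicate 1 (0.101 and 0.0750), where the log2 fold change of Atp2a1 was 2.01. The Casq2 call was lost without any 1 of the 8 libraries, at adjusted p-values from 0.0619 to 0.252.

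The knockdowns were also compared with each other. Baf250A knockdown was lower than Brd9 knockdown for 16 of the 24 tested genes and higher for 2, Acta1 and Tnnt2, where 15.0% of all tested genes were lower and 10.0% higher. The median log2 fold change of the 24 was -1.82, beside 0.00 over all tested genes. The lower genes included every tested gene of calcium handling, with log2 fold changes of -1.91 ± 0.37 for Ryr1, -2.71 ± 0.54 for Atp2a1 and -2.56 ± 0.56 for Casq2, and the thick filament genes Myh3 (-3.68 ± 0.84) and Mylpf (-1.73 ± 0.36). The adjusted p-values of these 5 ranged from 0.00605 for Ryr1 to 0.0135 for Myh3. Casq2, Myh3 and Mylpf had passed the filter through the Brd9 knockdown group alone, and Tnnt1 and Atp2a1 through the Brd9 and Baf180 knockdown groups. Ttn and Smyd1 had passed it through the Brd9 knockdown and scramble groups, and Myom2 and Synpo2l through every group but Baf250A knockdown. Lower values in Baf250A knockdown were therefore favoured for all these genes. Against Baf180 knockdown the same held for Tnnt1, Atp2a1, Myom2 and Synpo2l. Values higher in Brd9 than in Baf180 knockdown were favoured for Myh3, Mylpf, Casq2, Ttn and Smyd1.

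Baf250A knockdown was lower than Baf180 knockdown for 13 of the 24 and higher for 0, where 31.7% of all tested genes were lower and 30.8% higher. The median was -1.33 beside -0.05 over all tested genes. That median is from the fit without offsets, and these groups lay farthest apart in the GC values given below. Its size with the offsets is not given here. At an unadjusted p below 0.05, edgeR gave 2 higher genes, and DESeq2 and limma-voom gave 0 at an adjusted p below 0.05. With the GC and length offsets 3 were called higher, Tnnt2 (log2 fold change 0.98), Tpm2 (0.81) and Pdlim3 (0.93), and 11 lower. Des was 2.59-fold lower (adjusted p = 0.00138), Actn3 7.95-fold lower (adjusted p = 3.79e-05) and Acta1 2.72-fold lower (adjusted p = 0.000350) in Baf250A than in Baf180 knockdown. With the offsets these differences were 1.54-fold for Des, 4.65-fold for Actn3 and 1.59-fold for Acta1, all still called. Brd9 knockdown was higher than Baf180 knockdown for 8 of the 24 and lower for 5, where 26.3% of all tested genes were higher and 23.3% lower, and the median was 0.40 beside 0.02. The higher genes in Brd9 knockdown included Pdlim3 (6.89-fold, adjusted p = 0.000368), Smyd1 (5.47-fold, adjusted p = 0.00632), Xirp1 (3.51-fold, adjusted p = 0.00344) and Ttn (10.2-fold, adjusted p = 0.0102), and the lower ones Acta1 (8.94-fold, adjusted p = 0.000132), Tnnt2 (2.34-fold, adjusted p = 0.00165) and Des (2.04-fold, adjusted p = 0.0110). With the offsets Ttn was 3.79-fold higher (adjusted p = 0.0381) and Acta1 5.79-fold lower. The difference between Brd9 and Baf180 knockdown for Ldb3 was 0.00 ± 0.15 on the log2 scale (adjusted p = 0.986), but 0.43 ± 0.15 and called with the offsets (adjusted p = 0.0451).

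Other genes of striated muscle, myogenic regulators and relatives of the listed genes outside skeletal muscle give the setting. Their counts stand beside shares of all tested genes of 6.45% higher and 3.57% lower in Brd9 knockdown, 15.5% and 14.0% in Baf250A knockdown and 17.2% and 17.0% in Baf180 knockdown. With the GC and length offsets the shares of all tested genes were 14.4% higher and 13.9% lower in Brd9 knockdown, and between 17.5% and 19.5% in either direction in Baf250A and Baf180 knockdown. Of 75 further striated muscle genes, 38 were tested. In Brd9 knockdown 3 rose and 0 fell (median log2 fold change 0.39). In Baf250A knockdown 4 rose and 19 fell (median -0.69), among them Myl6b, a myosin light chain (-2.47), and Cacng1, a subunit of the muscle calcium channel (-2.39). In Baf180 knockdown 11 rose and 3 fell (median 0.28), with Jph2, which couples the membrane to the calcium store, at 2.32 and Cacng1 at 1.43. For the 0 falls in Brd9 knockdown, edgeR gave 2 genes at an unadjusted p below 0.05, DESeq2 gave 1 and limma-voom 0 at an adjusted p below 0.05, and with the offsets 11 of the 38 rose and 2 fell. In Baf180 knockdown DESeq2 gave 7 higher, and the offsets 5 lower.

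Of 33 smooth muscle and non-muscle relatives, all tested, 6 rose and 1 fell in Brd9 knockdown, 8 rose and 4 fell in Baf250A knockdown and 12 rose and 4 fell in Baf180 knockdown. With the offsets 8 rose and 5 fell in Brd9 knockdown. Those that rose in all 3 included Acta2, the smooth muscle actin Actg2 (log2 fold changes 0.98, 1.93 and 2.22 in Brd9, Baf250A and Baf180 knockdown), calponin Cnn1 (1.76, 2.38 and 1.27), leiomodin Lmod1 (2.77, 2.18 and 3.23) and the light chain Myl9 (1.31, 1.53 and 1.95). Of 18 myogenic regulators, 13 were tested, and 4 rose and 0 fell in Brd9 knockdown, 1 rose and 2 fell in Baf250A knockdown and 5 rose and 2 fell in Baf180 knockdown. For those 0 falls in Brd9 knockdown, edgeR gave 1 gene at an unadjusted p below 0.05, DESeq2 and limma-voom gave 0 at an adjusted p below 0.05, and the offsets gave 2, with 6 higher. In Baf250A knockdown the offsets gave 2 higher and 2 lower. Myog, which encodes myogenin, had 17 and 29 counts in Brd9 knockdown, 2 and 7 in Baf250A knockdown, 28 and 25 in Baf180 knockdown and 4 and 4 in scramble libraries and rose in Brd9 knockdown (log2 fold change 2.32, adjusted p = 0.0395) and Baf180 knockdown (2.68, adjusted p = 0.00893). Myog reached the filter's level in Brd9 and Baf180 knockdown libraries alone, so that a rise there was favoured by the filter. Myod1 rose in Baf180 knockdown (log2 fold change 1.09, adjusted p = 0.00295) and was not called in Brd9 (0.06) or Baf250A knockdown (-0.43). Pax7 had 11.6 and 10.2 CPM in Brd9, 15.4 and 13.9 in Baf180 and 0.905 and 0.207 in Baf250A knockdown. Scramble libraries had 3.20 and 2.77 CPM of Pax7. Myf5 had 24.3 and 18.2 CPM in Brd9, 11.9 and 15.9 in Baf250A, 7.13 and 10.7 in Baf180 knockdown and 22.2 and 28.0 in scramble. 

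Libraries differed in how level followed GC content. In the tenth of tested genes with the lowest GC content, the median of log2 CPM relative to each gene's own mean was 0.44 and 0.05 in Brd9 knockdown, 0.48 and 1.06 in Baf250A knockdown, -1.10 and -0.69 in Baf180 knockdown and -0.18 and -0.01 in scramble libraries. In the tenth with the highest GC content that median was -0.23 and 0.02 in Brd9 knockdown and -0.21 and -0.53 in Baf250A knockdown. It was 0.70 and 0.31 in Baf180 knockdown and 0.01 and 0.04 in scramble libraries. The 24 tested genes had GC contents from 47.2% to 58.4%, with a median of 54.7%. The median log2 fold changes given above are from the fit without offsets. Medians with offsets are not given here, so the sizes of the medians cannot be set against each other between knockdowns. With offsets for GC content and gene length, 9 rose and 2 fell in Brd9 knockdown, 3 rose and 11 fell in Baf250A knockdown and 8 rose and 8 fell in Baf180 knockdown. No called fold change against scramble turned its sign.

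**Figure D5:**
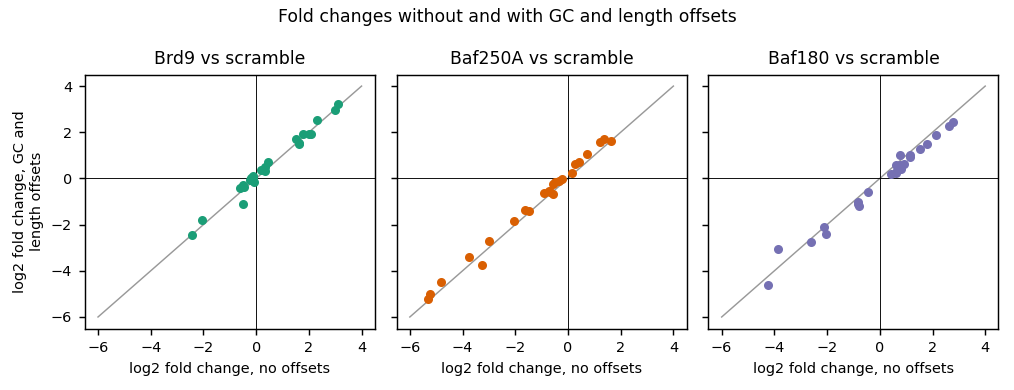
Log2 fold change against scramble of the 24 tested genes with GC and length offsets (vertical) and without them (horizontal), for Brd9, Baf250A and Baf180 knockdown. Each point is a gene, the grey diagonal marks equal values, and Ttn lies farthest from it, at -3.04 with offsets and -3.84 without in Baf180 knockdown and at -1.12 and -0.49 in Brd9 knockdown. Tnnt2 in Baf250A knockdown is at -0.14 with offsets and -0.49 without.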

How the data were processed

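Total RNA of growing C2C12 myoblasts was made into 8 libraries at BGI and sequenced on a BGISEQ-500, per the labels' protocols. The authors deposited estimated counts, not normalised, for each gene. Of the 43 genes, 4 have decimals, and counts were rounded. Gene length is another value in the table, per the file headers. HISAT2, StringTie, Cufflinks, Bowtie2, RSEM, DESeq2 and mm10 are named in the submitters' processing notes. The sources used here do not give their roles, their versions or the use of strand.

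Of 24573 gene IDs, 24479 were named by ID and 9 by accession through a RefSeq table, and 85 stayed unnamed. Genes were filtered with filterByExpr (minimum count 10), which left 12420, and scaled by TMM, with factors from 0.846 for Baf180 replicate 1 to 1.12 for Brd9 replicate 1. All 8 libraries entered 1 quasi-likelihood fit of 4 groups in edgeR 4.0.16 (R 4.3.3), with the 6 comparisons between groups. P-values were adjusted by Benjamini-Hochberg over all tested genes, and an adjusted p below 0.05 was called. Standard errors were taken as the size of the log2 fold change over the root of the F statistic. Ratios of genes with 1 to 3 counts in a group carry exact 95% binomial intervals. These and all counts cover counting error only, since reads without molecular identifiers are not independent molecules.

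The 43 genes, the further gene lists and the tests were chosen with earlier results of these data known. Genes were named where their mean reached 1 CPM or they were called against scramble, and the others are given by their counts. Alternatives were scaling by RLE or by upper quartile, leaving out the filter, a minimum mean of 5 CPM, limma-voom (limma 3.58.1), DESeq2 1.42.0, a fit of 4 libraries only, a replicate block, offsets for GC content and length (loess, span 0.3, GC found for 98.95% of tested genes), the block with those offsets, and each library left out. Where that left 1 library in a group, it was assumed to vary like the other groups. The procedure was tested on simulated counts. Sequences are from RefSeq (GRCm38.p6), whose promoter table held 34 of the 43 genes.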

Additional observations from a re-analysis of the deposited data

Results flagged for a closer look

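For 4 genes the direction against scramble differed between Baf250A knockdown and another knockdown, and the difference itself passed edgeR's test. Tnnt1 was lower in Baf250A than in Brd9 knockdown (log2 fold change -5.30) and than in Baf180 knockdown (-5.12), with both libraries of each group on their own side of both scramble libraries. Myom2 showed the same sides, at -3.07 against Brd9 knockdown and -2.60 against Baf180 knockdown. Tnnt1 and Myom2 reached the filter's level in Brd9 and Baf180 knockdown but not in Baf250A knockdown, so that these differences were favoured. Cryab and Flnc were lower in Baf250A than in Baf180 knockdown, at -1.68 and -1.33. The direction of each call against scramble held in all alternatives that gave a value.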

How the results depend on the processing

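Of 43 calls of single genes against scramble, 20 held in every one of the 18 alternatives that gave them a value, 23 were lost in at least 1, and 0 changed direction. The calls that held numbered 3 of 10 in Brd9 knockdown (Tnnt2, Xirp1 and Ldb3), 9 of 15 in Baf250A knockdown and 8 of 18 in Baf180 knockdown. DESeq2 called 5 genes higher in Brd9 knockdown, where 8 were called in edgeR, and gave no adjusted p for Myh3, Casq2 and Myom1. The replicate number as a block also gave 5. Genes higher in Baf250A than in Baf180 knockdown, 0 in the fit reported, numbered 1 with RLE, 2 with upper-quartile scaling, 3 with GC and length offsets and 3 with the block and those offsets. At a mean of at least 5 CPM fewer genes were tested, of the list Acta1, Actn3, Cryab, Des, Flnc, Ldb3, Pdlim3, Tnnt2, Tpm2 and Xirp1. The counts were 1 higher in Brd9 knockdown, 6 lower in Baf250A knockdown, and 6 higher and 4 lower in Baf180 knockdown, each against scramble. Between knockdowns they were then 5 lower in Baf250A than in Brd9, 1 higher and 6 lower in Baf250A than in Baf180, and 3 higher in Brd9 than in Baf180.

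Leaving out each library gave 1 to 6 genes higher in Brd9 knockdown (1 without scramble replicate 1, 1 without scramble replicate 2), 7 to 12 lower in Baf250A knockdown (7 without scramble replicate 2), and 3 to 10 higher (3 without scramble replicate 2) and 5 to 7 lower in Baf180 knockdown, against scramble. Between knockdowns the ranges were 8 to 16 lower in Baf250A than in Brd9, 0 to 1 higher and 8 to 14 lower in Baf250A than in Baf180, and 5 to 9 higher and 3 to 5 lower in Brd9 than in Baf180. The cause of these changes was not tested, beside the smaller number of libraries or genes. The shares of all tested genes called in these fits are not given here, so a general change in calling cannot be told apart. The labels state no pairing of same-numbered libraries. Deviations of same-numbered libraries from their group means correlated across genes at -0.05, 0.12 and 0.02 for Brd9, Baf250A and Baf180 knockdown with scramble. Between knockdowns they correlated at -0.47 for Baf250A and Brd9, 0.46 for Baf250A and Baf180, and -0.48 for Brd9 and Baf180. The source of these correlations was not tested. Beside the 5 above, the block moved no count by over 1.5 times. It ended the calls of Myh3, Mylpf and Casq2 in Brd9 knockdown (adjusted p = 0.0730, 0.0626 and 0.0592), Tnnt2 in Baf250A knockdown (0.0549) and Actc1 and Tpm2 in Baf180 knockdown (0.0540 and 0.0526), and with the offsets also those of Tnnt1 in Baf250A knockdown (0.0556) and Des in Baf180 knockdown (0.0690). Depth limits 19 of the 43 genes, which stayed under the filter, at most 26 counts in any library.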
